A study of Mus musculus with 6 samples.

Results

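The genes described here build and read constitutive heterochromatin, the silent chromatin that gathers around centromeres. They were chosen by name as a set of 40 heterochromatin and chromocenter genes in a table of 22770 gene rows. Rows were found for 32 of the 40, and the other 8 (Ehmt1, Dnmt1, Dnmt3a, Dnmt3b, Cenpa, Cenpb, Hmga2 and Top2b) are not analysed here. All 32 averaged at least 1 FPKM over the libraries and so were among the 15578 rows tested. FPKM scales fragment counts by transcript length and by the size of each library, so levels can be set side by side between genes only roughly.

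The libraries come from round spermatids, haploid cells of mouse testis that have finished meiosis and have not yet elongated. Ribosome-protected fragments were sequenced in 3 samples with the genotype Eif5a SKO and 3 samples with the genotype wild type (WT). EIF5A is a translation factor that carries the modified amino acid hypusine and helps ribosomes through stretches that slow them. The title of the study names EIF5A together with chromocenter reorganization, so the comparison asks whether ribosome occupancy of heterochromatin genes differed between the genotypes. The labels do not spell out SKO, and the deposited columns call it cKO. The labels name no strain, no age and no Cre or promoter behind the deletion. The design text, written for an accessibility assay, gives 3 mice in each group with cells sorted by flow cytometry. Whether each library is 1 mouse is not stated for the footprint libraries, so the spread behind each p-value may be partly technical.

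Chromocenters form when pericentric repeats of several chromosomes cluster, and in mouse round spermatids they are known to gather into a single body. Histone methyltransferases of the SUV39H class mark histone H3 at lysine 9, the HP1 proteins bind that mark, and H4K20 methyltransferases follow HP1. DNA methylation, methyl-DNA readers, the lamina and remodelling ATPases hold the same domains silent. A footprint level depends on the amount of mRNA as well as on its translation, and matched RNA levels are not analysed here. In such bulk samples fewer cells of a type and less RNA per cell cannot be told apart.

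Eif5a itself had 1.84, 1.93 and 2.99 FPKM in the SKO libraries, against 34.2, 48.8 and 61.9 FPKM in the WT libraries (log2 fold change -3.90, SE 0.37, limma adjusted p = 0.00641). The libraries labelled SKO were all far below those labelled WT. An exact permutation test, two-sided, reached p = 0.1, and a design of 3 against 3 can go no lower. Depth is unknown. Steps between low values gave a rough estimate of relative depth, 0.507 to 1.00, and of 0.105 to 0.191 FPKM for 1 read on a median low gene, but only 27.8% of low rows fell on whole steps. Round spermatid markers were plentiful, with 14 listed genes summing to between 1133 and 2345 FPKM in SKO and between 860 and 1549 FPKM in WT. Of these 14, 4 were higher and 0 lower in every SKO library than in every WT library, against 10.9% and 4.78% of all tested rows. Summed levels of somatic marker lists did not overlap between the genotypes. The 7 Sertoli genes with a row summed to between 60.8 and 93.1 FPKM in SKO and between 15.7 and 21.9 FPKM in WT, with 8 of 15 listed genes not analysed here (Sox9, Wt1, Gata4, Amh, Rhox5, Cldn11, Inhbb and Fshr). The 8 Leydig genes with a row summed to between 61.5 and 118 FPKM in SKO and between 14.3 and 19.0 FPKM in WT. Hsd3b6, Hsd17b3 and Nr5a1 of that list are not analysed here. Inha and Dhh of the Sertoli list overlapped between the genotypes, as did Star, Lhcgr and Cyp11b1 of the Leydig list. Cyp11b1 averaged 0.315 FPKM in SKO and 0.560 FPKM in WT. The 4 peritubular genes with a row summed to between 25.8 and 39.3 FPKM in SKO and between 4.54 and 6.19 FPKM in WT. All 4 were higher in every SKO library, and 1 of them, Dcn, passed the test (limma adjusted p = 0.047). Tagln, Des, Col1a1 and Col3a1 are not analysed here. The 7 blood and immune genes with a row summed to between 17.9 and 44.9 FPKM in SKO and between 52.0 and 114 FPKM in WT. That list was split: its 4 haemoglobin genes were lower in every SKO library, with log2 fold changes from -1.53 to -1.28, Cd68 and Adgre1 overlapped, and Lyz2 was higher in every SKO library (0.59, adjusted p = 0.546). The other germ cell sums overlapped between the genotypes. The 14 spermatocyte genes summed to 183 to 343 FPKM in SKO and 159 to 307 FPKM in WT. Of the 13 tested, 10 had a log2 fold change above 0 and 3 below, from -1.03 for Syce2 to 0.80 for Sycp3. For 0 of these 13 were the groups separate. The spermatogonial genes summed to 18.3 to 23.2 FPKM in SKO and 14.6 to 18.5 FPKM in WT. Those of elongating spermatids summed to 81.3 to 101.4 FPKM in SKO and 66.4 to 91.4 FPKM in WT. Among these 7, only Oaz3 was separate, higher in every SKO library (log2 fold change 1.39, limma adjusted p = 0.275). The part of these other cells in the results below was not tested.

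Footprint density of the heterochromatin genes ran from percentile 17.2 (Suv39h1) to percentile 96.7 (Trim28) of the tested protein-coding rows. None of the 32 differed between SKO and WT past the test over all rows. With limma on log2(FPKM + 1) and Benjamini-Hochberg adjustment, 0 of 32 had an adjusted p under 0.05, and the smallest adjusted p was 0.382. Over all tested rows 0.128% were called, 0.109% higher and 0.0193% lower in SKO. At an unadjusted p under 0.05 there were 2 of 32 members, Hells and Cbx5, against 11.0% of all tested rows. Under a TMM-type scaling, which sets each library by a trimmed mean of log ratios, 0 of 32 members were called with a smallest adjusted p of 0.124, while 1.02% of all rows were called, 0.764% higher and 0.257% lower. There 5 of 32 members had an unadjusted p under 0.05, against 15.6% of all rows. Leaving out 1 library moved the log2 fold change of 28 of the 32 members by over 1.5 times, the exceptions being Cbx1, Cbx5, Morc2a and Top2a. Values near 0 pass that bar easily, and its share over all rows was not computed. The median SD between replicates was 0.440 for the members and 0.496 for all tested rows on the log2 scale. The 95% intervals of the members were wide. For Trim28, with a log2 fold change of 0.34, the interval ran from -0.54 to 1.22, which takes in values of either sign.

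The median log2 fold change of the 32 members was -0.18, against 0.13 for all tested rows, a difference of -0.31. Of the 32, 22 lay below the median of all rows and 10 above it, where 50.0% of all rows lie below by construction. Relative to all rows in the same library, the median member stood at -0.18, -0.28 and -0.35 in the SKO libraries and at -0.05, 0.004 and 0.04 in the WT libraries, as log2 deviations from the WT mean. The SKO libraries thus all lay below the WT libraries. The WT mean includes the WT libraries themselves, which draws them toward it, so this separation restates the offset and is no further support for it. The offset was -0.33 under TMM-type scaling, with the same split of 22 below and 10 above. Such scaling divides all rows of a library by the same factor. Members and other rows then shift nearly alike, so this likeness is no further support for the offset. The members were chosen with earlier results known, so the offset is a description and has no test.

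**Figure D1:**
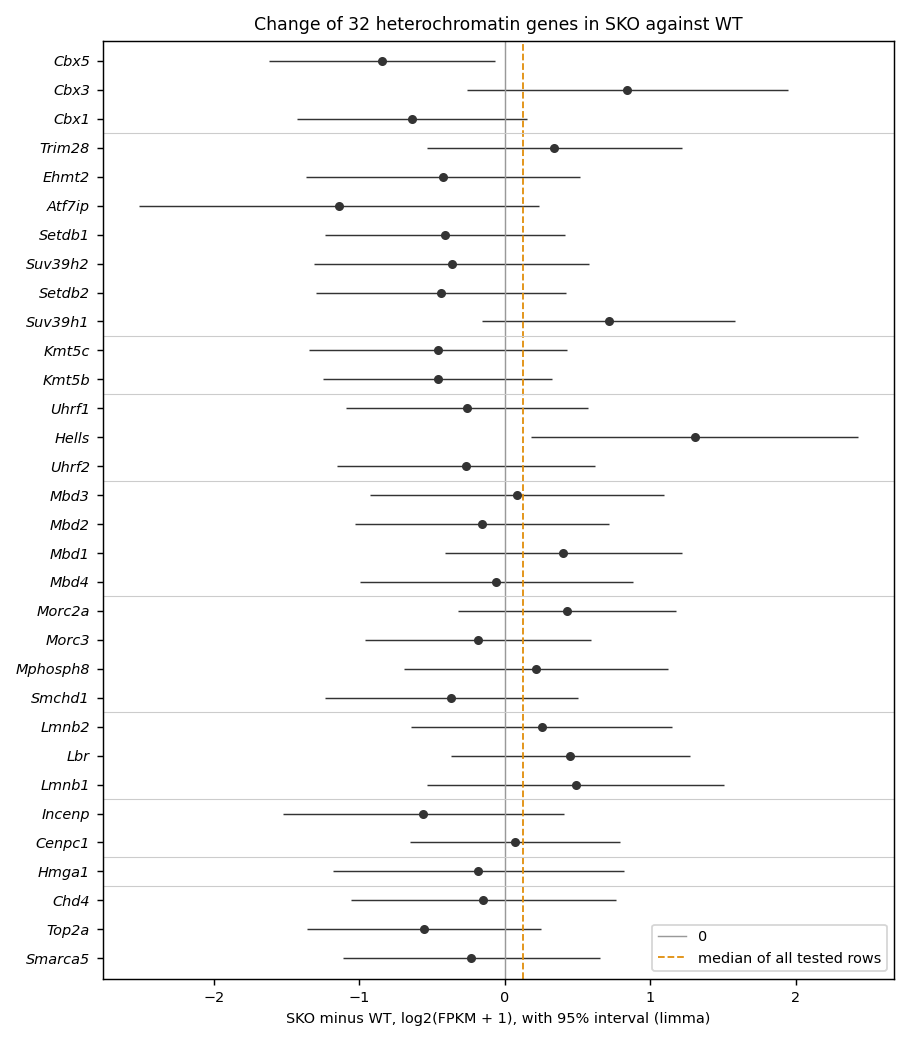
Log2 fold change of each of the 32 members, SKO minus WT on the log2(FPKM + 1) scale, with its 95% interval from limma (n = 3 per group). Genes are ordered by role from the HP1 genes at the top to the remodellers at the bottom, and the dashed line marks the median of all tested rows at 0.13. Intervals of Hells and Cbx5 lie on one side of 0, and those of the other members cross it.

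Levels of the members spanned a wide range. Trim28, the corepressor that recruits SETDB1 to silence repeats, had the densest footprints at 73.5, 104 and 113 FPKM in SKO and 66.5, 69.0 and 92.2 FPKM in WT. It stood at percentile 96.7 of the 11107 tested protein-coding rows. Next by the mean of all 6 libraries came Ehmt2, Incenp, Atf7ip and Chd4, whose ranges overlapped. Atf7ip ranked 8 in SKO and 2 in WT. Suv39h1 was lowest by the mean of all 6 libraries, at percentile 17.2 of the same rows, and also in WT at 1.09 FPKM, while Setdb2 was lowest in SKO at 1.44 FPKM. Trim28 made up 27.6%, 29.7% and 36.4% of the summed FPKM of the 32 members in SKO and 24.5%, 20.4% and 24.4% in WT. The median member had 4.57 ± 0.268 FPKM in SKO and 4.91 ± 0.838 FPKM in WT (SD, n = 3 each).

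**Figure D2:**
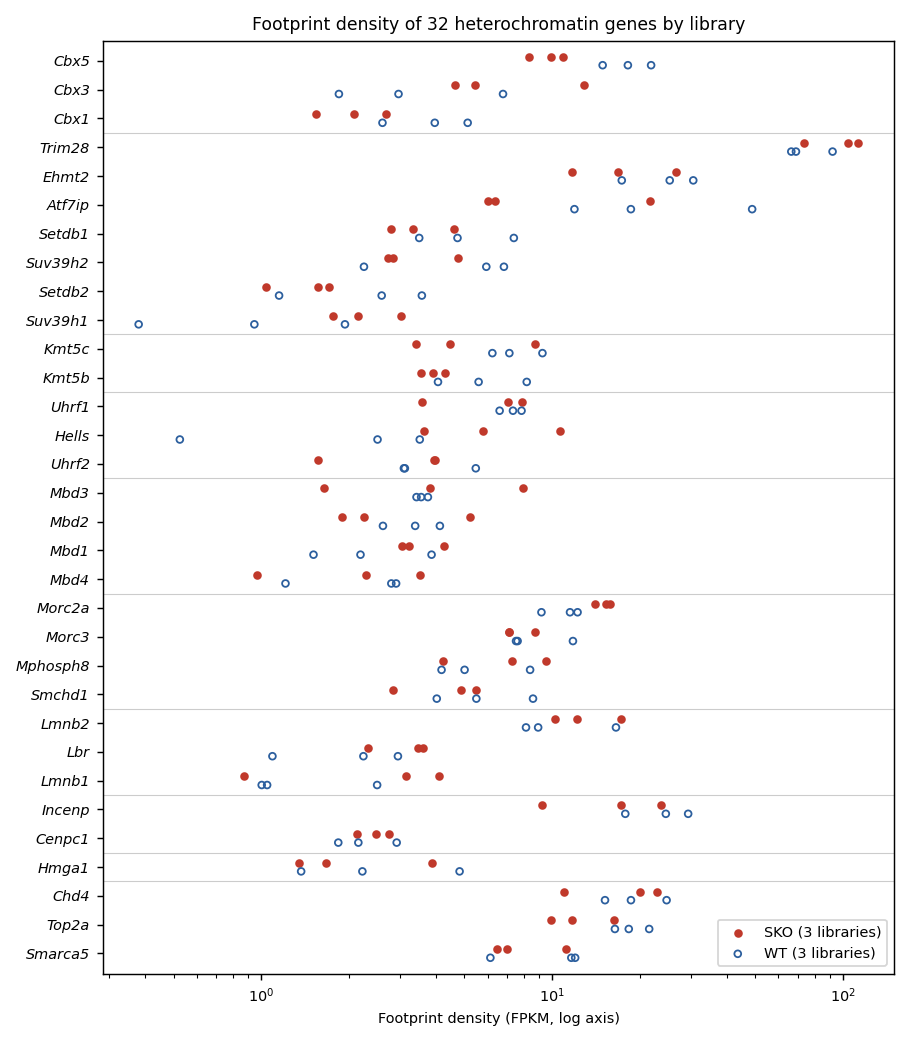
Footprint density in FPKM on a log axis for the 32 members, with 3 SKO libraries as filled red points and 3 WT libraries as open blue points below them in each row. Trim28 lies above 60 FPKM in all 6 libraries, and the SKO and WT points are separate with the deposited values for Cbx5, Hells, Morc2a and Top2a only.

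Among the H3K9 methyltransferases, the paralogues Suv39h1 and Suv39h2 had a within-library ratio that did not overlap between the genotypes. Any such separation of 3 against 3 libraries gives the smallest p of the exact permutation test, so that p adds nothing to it. Both paralogues write trimethyl H3K9 at pericentric repeats, and Suv39h2 is the form known for its testis expression. Suv39h1 (GRCm38 chromosome X, 8061171 to 8074760) had 1.76, 3.01 and 2.15 FPKM in SKO, against 0.379, 1.94 and 0.947 FPKM in WT. Its log2 fold change was 0.71 (95% interval -0.16 to 1.58, adjusted p = 0.542). Suv39h2 (chromosome 2, 3455815 to 3474986) had 2.85, 4.77 and 2.72 FPKM in SKO, against 2.26, 6.83 and 5.94 FPKM in WT, with a log2 fold change of -0.37 (adjusted p = 0.801). Each gene alone overlapped between the groups. Without WT replicate 1 the log2 fold change was 0.45 for Suv39h1 and -0.76 for Suv39h2, and without WT replicate 2 it was -0.13 for Suv39h2.

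The log2 ratio of Suv39h2 to Suv39h1 was 0.48, 0.52 and 0.24 in SKO and 1.24, 1.41 and 1.83 in WT. The SKO mean was lower by 1.08 (difference -1.08; two-sided exact permutation p = 0.1, the smallest possible, adjusted p = 0.45 over 9 pairs). Leaving out 1 library gave differences between -1.21 and -0.91. The difference was -1.65 with a pseudocount of 0.1 and -0.49 with a pseudocount of 5.

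Suv39h1 is the only X-linked member, and 318 of the 363 tested X-linked protein-coding genes lay above the median of all rows. These 363 genes had a median log2 fold change of 0.77, against 0.10 for 10720 autosomal ones. With 0.71, Suv39h1 stood at percentile 46.6 of the X-linked genes and at percentile 86.8 of the autosomal genes. The 31 autosomal members had a median 0.31 below that of all rows (-0.31). Its log2 fold change thus lay close to the middle of those of the X-linked genes.

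The start regions of this pair and of the members with the smallest p, Cbx5 and Hells, are shown as a description, since none of these genes passed the test. They run from 250 bases before to 50 bases after the transcript start (RefSeq, GRCm38.p6), 5′ to 3′ on the gene's strand, and the first listed start is given. That start lies 728 bases inside the annotated gene for Hells and 52 bases inside it for Cbx5, and at the annotated end of the gene for the other 2. Capitals mark the motifs searched on both strands, which were CRE (TGACGTCA), its overlapping half-site TGACG, the CCAAT box CCAAT, the GC box GGGCGG, the TATA box TATAAA, E2F-type sites TTTCCCGC and TTTGGCGC, and the CHR element TTTGAA.
Suv39h1 (chrX:8074711-8075010, minus strand): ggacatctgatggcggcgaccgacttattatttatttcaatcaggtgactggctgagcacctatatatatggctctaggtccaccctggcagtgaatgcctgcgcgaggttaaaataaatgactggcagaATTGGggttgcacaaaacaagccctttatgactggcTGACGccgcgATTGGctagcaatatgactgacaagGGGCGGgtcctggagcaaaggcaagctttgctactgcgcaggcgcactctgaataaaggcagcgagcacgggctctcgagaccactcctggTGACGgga
Suv39h2 (chr2:3474937-3475236, minus strand): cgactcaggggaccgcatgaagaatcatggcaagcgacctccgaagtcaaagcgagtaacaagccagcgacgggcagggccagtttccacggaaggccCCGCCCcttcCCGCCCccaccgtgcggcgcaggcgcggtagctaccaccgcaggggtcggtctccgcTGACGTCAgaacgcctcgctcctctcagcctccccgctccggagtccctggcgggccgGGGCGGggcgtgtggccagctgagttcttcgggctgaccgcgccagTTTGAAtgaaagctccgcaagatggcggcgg
Cbx5 (chr15:103239803-103240102, minus strand): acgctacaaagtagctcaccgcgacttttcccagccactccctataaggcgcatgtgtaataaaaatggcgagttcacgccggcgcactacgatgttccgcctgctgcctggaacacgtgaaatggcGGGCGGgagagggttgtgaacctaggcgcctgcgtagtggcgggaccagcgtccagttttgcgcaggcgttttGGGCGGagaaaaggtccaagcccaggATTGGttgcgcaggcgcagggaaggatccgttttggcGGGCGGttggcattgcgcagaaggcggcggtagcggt
Hells (chr19:38930740-38931039, plus strand): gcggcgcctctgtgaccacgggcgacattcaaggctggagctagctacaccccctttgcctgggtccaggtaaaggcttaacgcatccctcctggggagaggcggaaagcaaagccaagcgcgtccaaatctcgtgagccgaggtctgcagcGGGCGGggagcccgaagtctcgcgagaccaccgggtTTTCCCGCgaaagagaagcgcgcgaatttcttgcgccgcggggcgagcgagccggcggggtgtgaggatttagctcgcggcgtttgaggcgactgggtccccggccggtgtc

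These matches describe letters and not binding. The Suv39h2 window held the full CRE, the site of the spermatid activator CREM. Of the 28 members with a window 1 carried it, against 2.34% of protein-coding first windows and 1.79% of all 32851 windows. The Suv39h1 window had 2 half-sites. A half-site was in 35.7% of members, 23.8% of protein-coding first windows and 20.8% of all windows. GC boxes were in 92.9% of the members' windows, against 46.3% of protein-coding first windows and 35.7% of all windows. The members' windows had a median of 28.0 CpG, against 13.0 in protein-coding first windows. An E2F-type site was found in Hells, Cbx3 and Kmt5c, which is 10.7% of the members' windows, against 2.09% of protein-coding first windows and 1.56% of all windows. In the same order of windows, a CCAAT box was in 57.1%, 39.0% and 37.4%. A TATA box was in 3.57%, 13.3% and 13.6%, and a CHR element in 17.9%, 16.5% and 17.9%.

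Ehmt2 encodes G9a, which writes mono- and dimethyl H3K9. Ehmt2 had 11.8, 26.8 and 16.9 FPKM in SKO, against 17.4, 25.4 and 30.6 FPKM in WT (log2 fold change -0.42, adjusted p = 0.755). That value was -0.16 without SKO replicate 1 and -0.72 without SKO replicate 2. Setdb1, which writes trimethyl H3K9 with TRIM28, had 2.80, 4.61 and 3.32 FPKM in SKO, against 3.49, 4.73 and 7.39 FPKM in WT. Its relative Setdb2 had 1.03, 1.71 and 1.57 FPKM in SKO, against 1.15, 3.57 and 2.60 FPKM in WT. The groups overlapped for each of these 3 genes. The ratio of Setdb2 to Setdb1 averaged -0.90 ± 0.15 in SKO and -0.87 ± 0.48 in WT (log2, SD, n = 3).

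Atf7ip, which stabilizes SETDB1 in the nucleus, had the lowest log2 fold change of the set at -1.14 (SE 0.61, 95% interval -2.52 to 0.24, adjusted p = 0.538). It had 21.8, 6.02 and 6.38 FPKM in SKO, against 11.9, 48.8 and 18.7 FPKM in WT. SKO replicate 1 lay inside the WT range, and WT replicate 2 was far above the other libraries. Without WT replicate 2 the log2 fold change was -0.59. Without SKO replicate 1 it was -1.70. No other member varied as much between replicates (SD 0.978 on the log2 scale, against a median of 0.440 over the 32 members).

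Expressed as shares, Ehmt2 made up most of the summed density of Suv39h1, Suv39h2, Setdb1, Setdb2 and Ehmt2, at 62.3% ± 3.76 in SKO and 64.9% ± 5.35 in WT (SD, n = 3 each). The Suv39h1 share was 8.72%, 7.38% and 8.05% in SKO and 1.54%, 4.57% and 2.00% in WT, a grouping chosen after the values were seen. The other shares overlapped between the groups. As counting depth is unknown, no interval is given for a share in a single library.

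H4K20 methylation depends on Kmt5b and Kmt5c, the enzymes that write di- and trimethyl H4K20. Kmt5b had 3.91, 3.54 and 4.27 FPKM in SKO, against 8.19, 4.05 and 5.59 FPKM in WT. Kmt5c had 8.71, 4.44 and 3.40 FPKM in SKO, against 9.27, 7.13 and 6.24 FPKM in WT. Both had a log2 fold change of -0.46 (adjusted p = 0.670 and 0.705), and 1 SKO library reached into the WT range in each. Kmt5b stood at -0.24 without WT replicate 1, and Kmt5c at -0.22 without SKO replicate 3 and -0.79 without SKO replicate 1. The log2 ratio of Kmt5c to Kmt5b averaged 0.33 ± 0.62 in SKO and 0.33 ± 0.31 in WT (SD, n = 3).

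HP1 proteins read H3K9 methylation, and Cbx5 (HP1 alpha) had lower footprint density in SKO than in WT without passing the test. Cbx5 (chromosome 15, 103191546 to 103239904) had 10.9, 9.91 and 8.32 FPKM in SKO, against 14.9, 18.2 and 21.9 FPKM in WT. The groups did not overlap, and the mean was 9.72 ± 1.31 FPKM in SKO and 18.4 ± 3.49 FPKM in WT (SD, n = 3). The log2 fold change was -0.84 (SE 0.35, 95% interval -1.62 to -0.07, unadjusted p = 0.0359, adjusted p = 0.416, limma). Under TMM-type scaling it was -0.999 (adjusted p = 0.124).

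Cbx1 (HP1 beta) had 1.55, 2.69 and 2.09 FPKM in SKO, against 2.61, 3.95 and 5.13 FPKM in WT (log2 fold change -0.64, adjusted p = 0.547). Cbx3 (HP1 gamma, the form also found on active genes) had 4.64, 12.9 and 5.44 FPKM in SKO, against 6.78, 2.97 and 1.85 FPKM in WT (log2 fold change 0.84, adjusted p = 0.576). Cbx3 ran in the opposite direction to its paralogues, with WT replicate 1 inside the SKO range. Its log2 fold change was 0.44 without SKO replicate 2 and 0.52 without WT replicate 3. How reads shared by Cbx3 and the row Cbx3-ps7 were assigned is not stated, so both are uncertain. Cbx3-ps7 had 2.45, 2.99 and 2.33 FPKM in SKO and 1.69, 0.828 and 1.14 FPKM in WT.

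The shares of the HP1 genes, also computed after the values were seen, overlapped between the groups. Cbx5 made up 63.9%, 38.9% and 52.5% of the summed HP1 density in SKO and 61.4%, 72.5% and 75.8% in WT. Cbx3 made up 27.1%, 50.6% and 34.3% in SKO and 27.9%, 11.8% and 6.41% in WT. WT replicate 1 and SKO replicate 1 had close to the same composition. The log2 ratio of Cbx5 to Cbx3 averaged 0.42 ± 0.72 in SKO and 2.11 ± 1.00 in WT (SD, n = 3; difference -1.68, two-sided exact permutation p = 0.2, adjusted p = 0.45 over 9 pairs). The ratio of Cbx1 to Cbx3 averaged -1.37 ± 0.47 in SKO and 0.11 ± 1.12 in WT (exact permutation p = 0.2). Without WT replicate 1 the difference of the Cbx5 to Cbx3 ratio was -2.22. The summed HP1 density was 17.1, 25.5 and 15.9 FPKM in SKO, against 24.3, 25.2 and 28.9 FPKM in WT, and overlapped.

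**Figure D3:**
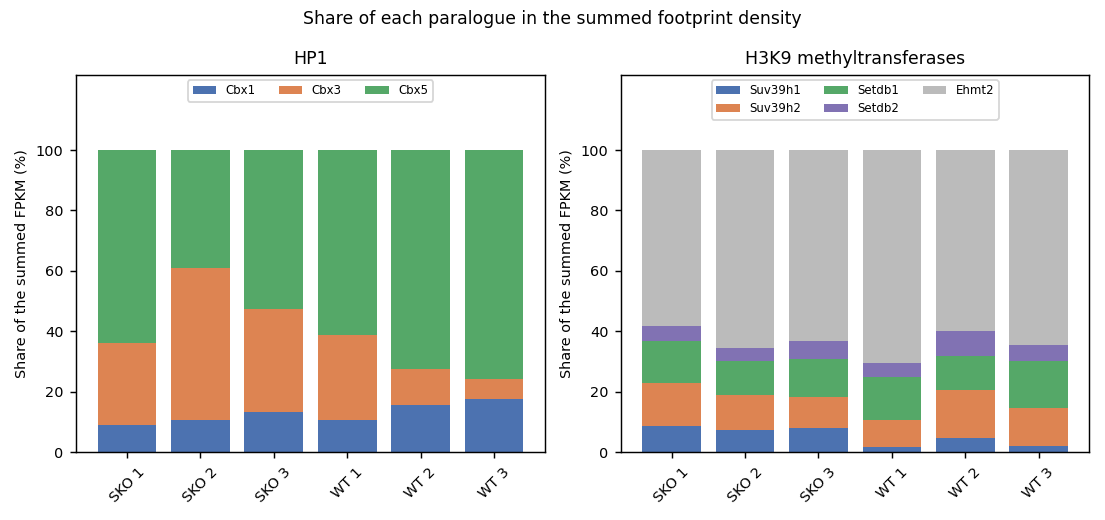
Share of each paralogue in the summed FPKM of the HP1 genes (left) and of 5 H3K9 methyltransferase genes (right), for SKO replicates 1 to 3 and WT replicates 1 to 3. Cbx3 takes 27.1% to 50.6% of the HP1 density in SKO and 6.41% to 27.9% in WT, and Suv39h1 takes 7.38% to 8.72% of the methyltransferase density in SKO and 1.54% to 4.57% in WT.

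**Figure D4:**
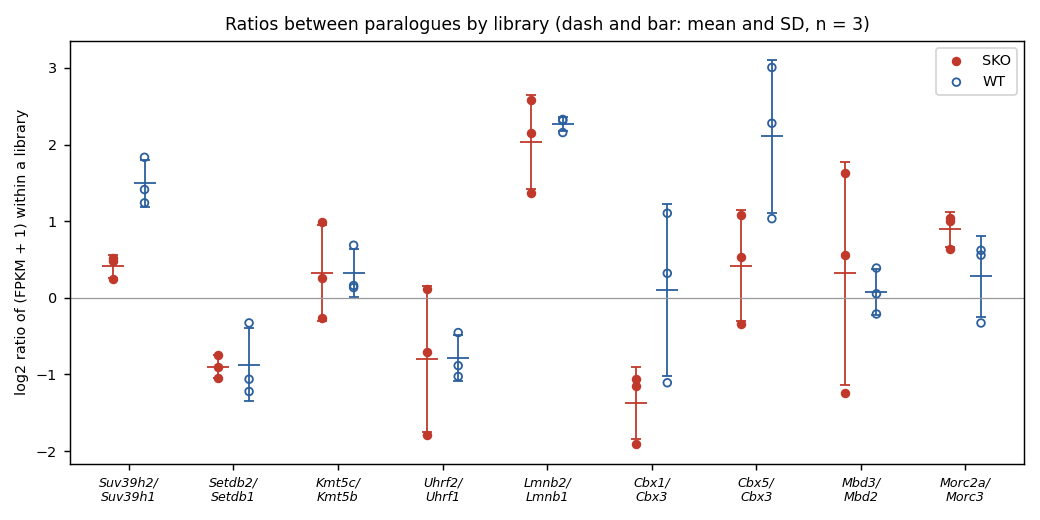
Log2 ratio of (FPKM + 1) between paralogues within each library, with SKO points left of WT points, and the mean and SD of 3 libraries. The points are separate for Suv39h2/Suv39h1 and Morc2a/Morc3, and overlap for the other 7 pairs. Separate groups of 3 always give the smallest p the design allows, so the p of these pairs adds nothing to their separation (two-sided exact permutation p = 0.1, adjusted p = 0.45 over 9 pairs). The share of separate ratios over other gene pairs was not computed, and Suv39h1 is X-linked while Suv39h2 is not.

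DNA methylation genes were represented by Uhrf1, Uhrf2 and Hells. Hells is the remodelling ATPase LSH, which opens heterochromatin to DNA methyltransferases, and it had the highest log2 fold change of the set. Hells (chromosome 19, 38930262 to 38970470) had 10.6, 3.63 and 5.79 FPKM in SKO, against 3.51, 0.525 and 2.51 FPKM in WT. The mean was 6.68 ± 3.59 FPKM in SKO and 2.18 ± 1.52 FPKM in WT (SD, n = 3). The groups were separate by a narrow margin, 3.63 in the lowest SKO library against 3.51 in the highest WT library. The log2 fold change was 1.31 (SE 0.50, 95% interval 0.18 to 2.43, unadjusted p = 0.0272, adjusted p = 0.382, limma). It was 0.84 without WT replicate 2, the library with the lowest value. After TMM-type scaling the groups overlapped.

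Uhrf1, which guides maintenance methylation to hemimethylated DNA, had 7.07, 3.57 and 7.87 FPKM in SKO, against 6.60, 7.34 and 7.86 FPKM in WT. Uhrf2 had 3.94, 3.94 and 1.56 FPKM in SKO, against 3.12, 3.10 and 5.47 FPKM in WT. Both overlapped, with log2 fold changes of -0.26 and -0.27. The log2 ratio of Uhrf2 to Uhrf1 averaged -0.80 ± 0.95 in SKO and -0.79 ± 0.30 in WT (SD, n = 3).

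The methyl-DNA binding genes Mbd1, Mbd2, Mbd3 and Mbd4 did not pass the test. Their log2 fold changes ran from -0.16 for Mbd2 to 0.40 for Mbd1, and the smallest adjusted p was 0.722. Mbd2, a reader that recruits the NuRD complex, had 5.24, 1.89 and 2.25 FPKM in SKO, against 3.38, 2.62 and 4.12 FPKM in WT. Mbd3, a NuRD subunit, had 1.65, 7.97 and 3.79 FPKM in SKO, against 3.55, 3.74 and 3.42 FPKM in WT. The SKO libraries spread on both sides of the WT range for both genes. Mbd4, a thymine glycosylase, averaged 2.25 ± 1.27 FPKM in SKO and 2.31 ± 0.951 FPKM in WT (SD, n = 3).

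Morc2a, Morc3, Smchd1 and Mphosph8 silence genes and repeats through GHKL-type ATPases or the HUSH complex. Morc2a, the ATPase that HUSH recruits, had 15.8, 15.3 and 14.1 FPKM in SKO, against 9.20, 11.5 and 12.2 FPKM in WT. Its groups did not overlap, and its replicates were the tightest of the set, yet the log2 fold change was 0.43 (SE 0.33, adjusted p = 0.676). After TMM-type scaling the Morc2a groups overlapped. Morc3 had 7.11, 7.12 and 8.73 FPKM in SKO, against 11.8, 7.52 and 7.61 FPKM in WT. The log2 ratio of Morc2a to Morc3 was 1.05, 1.00 and 0.63 in SKO and -0.33, 0.56 and 0.62 in WT (exact permutation p = 0.1, adjusted p = 0.45). Those groups were separate by a narrow margin, and the difference was 0.61 with all libraries and 0.31 without WT replicate 1. Smchd1, which helps to hold the inactive X silent, had log2 fold change -0.37, and Mphosph8, the HUSH chromodomain subunit, had 0.21, with overlap in both.

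The lamina genes Lbr, Lmnb1 and Lmnb2 lay above the median of all rows, with log2 fold changes of 0.45, 0.49 and 0.25 and adjusted p of 0.690, 0.734 and 0.867. LBR tethers heterochromatin to the nuclear envelope, and Lmnb1 and Lmnb2 encode the B-type lamins. Lmnb2, the densest, had 10.2, 17.3 and 12.2 FPKM in SKO, against 8.96, 8.14 and 16.6 FPKM in WT. Lmnb1 had 0.875, 3.14 and 4.10 FPKM in SKO, against 1.00, 1.05 and 2.50 FPKM in WT. Lbr had 2.32, 3.47 and 3.61 FPKM in SKO, against 2.25, 1.09 and 2.95 FPKM in WT. All 3 genes overlapped between the groups. These genes are used in many somatic cells, and the Sertoli, Leydig and peritubular sums above were also higher in SKO, while the blood sum was lower. The part of such cells was not tested. Without SKO replicate 2 the Lmnb2 log2 fold change was 0.055, without SKO replicate 3 that of Lmnb1 was 0.20, and without WT replicate 2 that of Lbr was 0.19.

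Of the centromere genes, Incenp was the denser. Incenp, the scaffold of the chromosomal passenger complex, had 9.20, 23.6 and 17.3 FPKM in SKO, against 17.9, 24.6 and 29.4 FPKM in WT (log2 fold change -0.56, adjusted p = 0.673). Without SKO replicate 1 the log2 fold change was -0.21, and without SKO replicate 2 it was -0.84. Cenpc1, which links centromeric nucleosomes to the kinetochore, had 2.48, 2.74 and 2.13 FPKM in SKO, against 1.84, 2.92 and 2.16 FPKM in WT. The Cenpc1 groups lay within each other, with a 95% interval from -0.65 to 0.79. Hmga1, an AT-hook protein that binds satellite DNA, had 1.35, 1.67 and 3.85 FPKM in SKO, against 1.37, 2.23 and 4.81 FPKM in WT.

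Topoisomerase and remodeller genes had negative log2 fold changes. Top2a, which decatenates DNA and is known from dividing cells, had 9.91, 16.3 and 11.7 FPKM in SKO, against 16.4, 18.4 and 21.6 FPKM in WT. Its groups were separate with the lowest WT library just above the highest SKO library, at a log2 fold change of -0.56 (SE 0.36, adjusted p = 0.613). Chd4, the NuRD ATPase, had 11.0, 22.9 and 20.1 FPKM in SKO, against 18.7, 15.2 and 24.8 FPKM in WT. Smarca5, the ISWI ATPase, had 6.98, 11.2 and 6.49 FPKM in SKO, against 6.14, 12 and 11.7 FPKM in WT. Both overlapped, at -0.15 and -0.23.

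In all, 2 members (Hells and Morc2a) were higher and 2 (Cbx5 and Top2a) lower in every SKO library than in every WT library. Over all tested rows 10.9% were separate in the higher and 4.78% in the lower direction. The count of separate members depended on scaling, in a comparison added after the values were seen. After TMM-type scaling 0 members were separate in the higher direction, against 11.6% of all rows. In the lower direction 6 were separate (Cbx1, Cbx5, Setdb1, Ehmt2, Top2a and Incenp), against 9.85% of all rows.

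Partners of these genes were examined in 8 lists, and 0 of their 100 tested genes passed with the deposited values (smallest adjusted p 0.135, limma). The linker histone list had 5 tested genes of 15 listed, a median log2 fold change of 1.40, and 3 genes with an unadjusted p under 0.05, against 11.0% of all rows. In the centromere list 4 of 25 and in the NuRD list 1 of 11 had such a p, and in the other 5 lists 0. H1f1, a linker histone gene, had 11.3, 32 and 27.8 FPKM in SKO, against 0.852, 3.53 and 5.42 FPKM in WT (log2 fold change 2.59, adjusted p = 0.155). Hils1, a linker histone-like gene of spermatids, had 16.9, 32.04 and 25.7 FPKM in SKO, against 4.51, 6.94 and 9.52 FPKM in WT (1.70, adjusted p = 0.179). Under TMM-type scaling Hils1 rose (log2 fold change 1.55, adjusted p = 0.0410). It was 1 of 100 list genes to pass there, a share close to the 1.02% of all rows. The groups did not overlap for H1f1 or Hils1, which are named for the smallest p of that list. Of its 5 tested genes 3 were higher in every SKO library with the deposited values, against 10.9% of all rows.

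The NuRD list had 11 tested genes and a median 0.01 below that of all rows (-0.01). Rbbp7, a histone chaperone subunit, had 8.64, 15.0 and 5.07 FPKM in SKO, against 1.37, 1.71 and 1.40 FPKM in WT (log2 fold change 1.97, adjusted p = 0.135). Gatad2b had 10.4, 9.63 and 8.89 FPKM in SKO, against 5.42, 8.10 and 8.02 FPKM in WT. Both were higher in every SKO library with the deposited values, making 2 of the 11 genes. Over all tested rows 10.9% were separate in the higher direction. Both are named for the smallest p of the list, which favours such separation. Gatad2b overlapped after TMM-type scaling, and Rbbp7 is X-linked like Suv39h1. The Polycomb list, with 17 tested genes of facultative heterochromatin, had a median 0.01 below all rows (-0.01). Scml2, an X-linked Polycomb-type gene of the germ line, had 6.60, 11.9 and 8.09 FPKM in SKO, against 2.84, 4.39 and 6.83 FPKM in WT. Mtf2, a PRC2 cofactor, had 3.98, 10.9 and 5.56 FPKM in SKO, against 4.36, 3.45 and 2.03 FPKM in WT. These had adjusted p of 0.486 and 0.523.

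Centromere and passenger complex partners gave 25 tested genes with a median 0.15 above all rows. Cenpn, a subunit of the constitutive centromere network, had 5.83, 13.2 and 16.0 FPKM in SKO, against 2.64, 3.20 and 8.15 FPKM in WT (adjusted p = 0.418). Cenpe, a kinetochore kinesin, had 13.5, 25.1 and 19.3 FPKM in SKO, against 24.8, 44.9 and 56.9 FPKM in WT (log2 fold change -1.05, adjusted p = 0.422). The groups overlapped for both with the deposited values. After TMM-type scaling every SKO library was lower for Cenpe (adjusted p = 0.0771) and higher for Scml2 (adjusted p = 0.280). Over all rows 9.85% were separate in the lower and 11.6% in the higher direction there. H3K9 and HUSH partners (15 tested) and DNA methylation partners (7 tested) had medians within 0.02 of that of all rows. The demethylase and oxidase list (11 tested) was 0.11 below (-0.11), and the lamina and inner membrane list (9 tested) 0.09 below (-0.09).

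The genes with the smallest p in these 4 lists did not pass either. Rif1, a heterochromatin and replication timing factor, had a log2 fold change of -0.92, and Pogz, an HP1-binding protein, had -0.70. Kdm4a, an H3K9 demethylase, had 1.26, 1.55 and 3.86 FPKM in SKO, against 2.84, 4.92 and 6.78 FPKM in WT. The X-linked demethylase gene Phf8 had a log2 fold change of 0.74. Zbtb38 and Zbtb4, readers of methylated DNA, had 0.46 and -0.51. The emerin gene Emd, also X-linked, had 0.64, and Lmna, the A-type lamin gene that is strong in somatic cells, had 0.48.

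**Figure D5:**
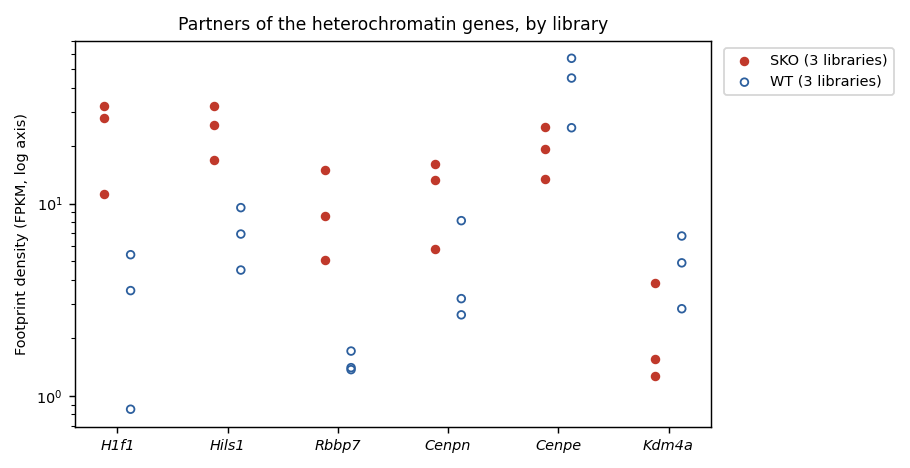
Footprint density in FPKM on a log axis for 6 partner genes, with SKO libraries as filled red points left of WT libraries as open blue points. H1f1, Hils1 and Rbbp7 are separate with SKO above WT, and Cenpn, Cenpe and Kdm4a overlap.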

How the data were processed

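Ribosome footprints of 6 round spermatid libraries, 3 Eif5a SKO and 3 wild type, were used as FPKM per gene and library, as the authors deposited them in 1 table with no counts. Per the submitters' processing notes, mm10 was the build, and Cufflinks, STAR, Bowtie2 and cutadapt were among the tools. Their settings, the gene length used for FPKM and the handling of reads that map to several genes are not stated. The 3 densest rows held 24.6% (SKO replicate 2) to 46.4% (WT replicate 2) of the summed FPKM of a library. Protein-coding rows held 18.2% (SKO replicate 1) to 32.9% (SKO replicate 2), so the correction for library size is rough as well. Columns were matched to samples by genotype and replicate number in the titles.

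Whole reads could not be recovered: 27.8% of 2907 low rows had values in whole-number steps within 2%, so no count model was used. The filter kept rows averaging 1 FPKM or more. The test was limma 3.58.1 (R 4.3.3) on log2(FPKM + 1), with a trended eBayes prior, two-sided, with Benjamini-Hochberg adjustment over 15578 rows and a threshold of 0.05. Such fold changes understate the change of low genes. Ratios of paralogues used an exact permutation test over the 6 libraries (scipy 1.17.1). The fit was run on simulated data with independent noise and no shift of whole libraries, so the scaling of libraries was not tested there. Of 13 planned pairs 9 had both genes, and a planned test of proline runs needed protein sequences and was not run.

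The members and lists were chosen with earlier results of these data known. Of the 40 members, the 32 with a row were described. By the naming rule, library values are given for Eif5a, members whose groups did not overlap, the densest member of each role and paralogue pairs. From each partner list, genes past the threshold or else the 2 with the smallest p are named. Library values of other members were added after they were seen. Alternatives were pseudocounts of 0.1 and 5, no filter or a mean of 5 FPKM, TMM-type scaling (trimming 0.3 of ratios and 0.05 of levels at each end), quantile normalization, equal protein-coding sums, eBayes without trend or robust, a replicate block, and each library omitted in turn. Promoter windows and coordinates are from RefSeq GRCm38.p6, the assembly behind mm10, and 28 of 32 members had a window.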

Additional observations from a re-analysis of the deposited data

How the results depend on the processing

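No member passed the test under any of the 16 alternatives, with 32 members tested in each except the 5 FPKM filter, which left 16, and the smallest adjusted p in any of them was 0.0645 (Incenp, equal protein-coding sums, limma). Among all tested rows 17 were called higher and 3 lower in the values as deposited, against 119 and 40 after TMM-type scaling, 249 and 198 after quantile normalization, 315 and 202 with equal protein-coding sums, 78 and 8 with the 5 FPKM filter, 53 and 10 with robust eBayes, 4 and 1 with no filter or the replicate block, and 3 and 1 with a pseudocount of 5. With 1 library omitted, 3 to 25 were higher and 1 to 4 lower. The members' median relative to all rows stayed negative. The eBayes settings and the replicate block leave every log2 fold change as it was, so they could move neither this median nor a sign. It moved to -0.41 with a pseudocount of 0.1, -0.19 with a pseudocount of 5, and ran from -0.38 to -0.24 without 1 library. Over the 16 members with a mean of at least 5 FPKM it was -0.46 against the 6582 rows left, and -0.37 for the same 16 against all rows of the 1 FPKM filter. The cause was not tested. Eif5a kept its call in all 16. Of 32 members 10 changed sign somewhere. Under TMM-type scaling, quantile normalization and equal protein-coding sums, Mbd3 was -0.0748, -0.11 and -0.14 and Cenpc1 -0.0459, -0.0178 and -0.0895. Omitting 1 library at a time, log2 fold changes ran as Uhrf1 -0.44 to 0.0367, Uhrf2 -0.42 to 0.0485, Mbd2 -0.50 to 0.0555, Mbd3 -0.36 to 0.52, Mbd4 -0.33 to 0.26; Cenpc1 -0.0317 to 0.20, Hmga1 -0.50 to 0.17, Morc3 -0.28 to 0.00941, Mphosph8 -0.0128 to 0.49, Chd4 -0.34 to 0.15. Log2 ratio differences ran as Setdb2/Setdb1 -0.20 to 0.24, Kmt5c/Kmt5b -0.33 to 0.30, Uhrf2/Uhrf1 -0.46 to 0.49, Lmnb2/Lmnb1 -0.51 to 0.0963, Mbd3/Mbd2 -0.41 to 1.02. A pseudocount of 5 turned the ratios Setdb2/Setdb1 (0.0427) and Uhrf2/Uhrf1 (0.0255). Same-numbered libraries correlated at 0.093, 0.00016 and 0.024 in their deviations from group means, so numbers were not taken as pairs. With the replicate block 0 members passed, and the median offset was -0.31, which the block cannot change. The planned proline-run comparison was not run, since protein sequences were not used here. Depth limits members near 1 FPKM.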

Other observations

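Hmga1b, a row named as a copy of Hmga1, had 0.593, 0.548 and 1.78 FPKM in SKO, against 0.888, 33.9 and 1.58 FPKM in WT. WT replicate 2 stood apart in Hmga1b, while Hmga1 had 2.23 FPKM in that library. The same library held the highest Atf7ip value, 48.8 FPKM.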
